A study of Mus musculus with 11 samples.

Results

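Hox genes were followed in the RNA of mouse cells that were sorted by flow cytometry and are labelled as bone marrow mesenchymal stem or stromal cells. In the adult libraries, high macrophage markers and low fibroblast progenitor markers went against that label, while summed marrow stroma markers did not. Values are given below, and the groups are therefore named by age and sort gate. The members were every gene named Hoxa, Hoxb, Hoxc or Hoxd with a number, so they were chosen by name and not by level. They came to 36 of the 16576 genes listed in any of 3 deposited tables, with 11 Hoxa, 8 Hoxb, 9 Hoxc and 8 Hoxd genes. The mouse annotation GENCODE M21 holds 39 such genes, and Hoxb1, Hoxb13 and Hoxd4 are not analysed here. There were 36 members among the genes of the age comparison, 29 in the Sca1 comparison and 30 in the knockout comparison, with 29 in all of them. After a filter on low counts, 30, 28 and 28 of these were tested. The filter keeps a gene that is high in 1 group only, so a count of calls among tested members describes those members and not all 36.

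Adult wild-type cells sorted as PDGFRa+CD51+ (3 libraries) were set against wild-type, Cre-negative PDGFRa+Sca1+ cells (3 libraries), which are called perinatal here. In a separate table, wild-type cells labelled PDGFRa+Sca1- (2 libraries, replicates 2 and 3) were set against replicates 2 and 3 of the perinatal cells labelled Sca1-positive. In the last table, Cre-positive PDGFRa+Sca1+ cells with a knockout of Igf1r, which encodes a growth factor receptor (3 libraries), were set against Cre-negative controls (3 libraries). No source used here gives the days of age, the strain, the promoter driving Cre or the number of animals behind a library. Age and sort gate changed together in the age comparison, and Cre and the deletion changed together in the knockout comparison, so neither pair can be told apart. Nothing ties a library to a separate animal, so p-values reflect no more than the variation among these samples, part of which may be technical.

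Hox genes encode homeodomain transcription factors that give cells along the body axis and along the limbs their position. They lie in 4 clusters, and genes with the same number in different clusters are paralogues that arose by duplication of a whole cluster. Low numbers mark anterior levels and high numbers mark posterior levels, and in limbs the HoxA and HoxD genes of high number pattern the segments from shoulder or hip to digit. Skeletal and stromal cells of adult animals keep region-specific Hox patterns, while blood cells use mainly HoxA and HoxB genes. Polycomb proteins keep silent Hox genes silent, trithorax proteins keep active ones active, and retinoic acid acts on the anterior genes in the embryo.

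Total counts ran from 13412316 to 23782217 per library. A count of 3, used as the floor for a library, was worth 0.126 to 0.224 CPM (counts scaled to the library total), and this covers counting error only. Perinatal replicates 2 and 3 recur in each of the 3 tables (counts were equal in 98.0% to 100% of shared genes), so the comparisons share these samples. Replicate 1 differs between the age and the knockout table, with equal counts in 1.72% of genes. The labels give both sets of counts to the same sample, and which of them belongs to it cannot be told. Ly6a, the gene of Sca1, went against the Sca1 labels: libraries labelled Sca1-negative held 666 and 659 CPM, and those labelled Sca1-positive held 13.8 and 10.03 CPM. In the knockout table Ly6a was at 425 CPM in control 1, at 13.8 and 10.04 CPM in controls 2 and 3, and at 768, 682 and 930 CPM in the knockouts. Igf1r itself was at 29.5, 31.7 and 30.7 CPM in controls 1 to 3 and at 8.20, 4.22 and 3.24 CPM in the knockouts, without overlap (edgeR quasi-likelihood adjusted p = 0.0816). Ly6a was not among the genes listed in the age comparison, so the Sca1 label of perinatal replicate 1 could not be checked there. Library labels are used throughout, and directions between the Sca1 groups hold for the labels only.

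Adult and perinatal libraries differed in which Hox genes were read, though the share of Hox genes called was near that of all genes. Some of the called genes passed the filter through 1 group only, as given below. The HoxD cluster was nearly silent in adult libraries and active in perinatal ones, while Hoxc12 and Hoxc13 were read in adult libraries alone. Among the anterior genes, Hoxb3 and Hoxb4 were higher in adult cells and Hoxd3, Hoxb2 and Hoxc4 were lower. With edgeR's quasi-likelihood test, adjusted by Benjamini-Hochberg over 13757 genes and called at an adjusted p under 0.05, 16 of 30 tested Hox genes were lower in adult cells, 7 were higher and 7 were not called. Of all genes, 77.1% were called, 37.4% higher and 39.7% lower, so the 76.7% of Hox genes called lay near the share of all genes. The median log2 fold change was -1.05 over the Hox genes and -0.06 over all genes.

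**Figure D1:**
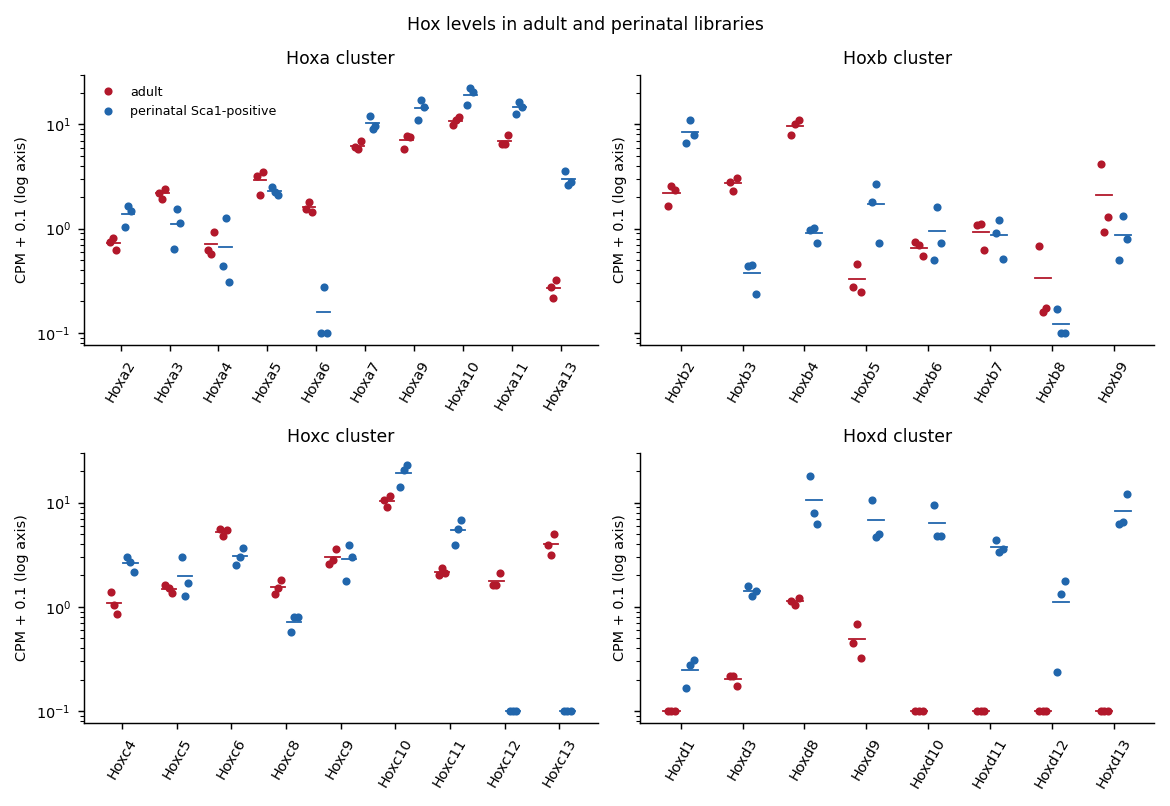
Level of Hox genes in 3 adult (red) and 3 perinatal Sca1-positive (blue) libraries, as CPM plus 0.1 on a log axis, by cluster. Points are libraries, short lines are group means, and points on the lowest level are counts of 0. Adult points of Hoxd10 to Hoxd13 lie at 0, as do perinatal points of Hoxc12 and Hoxc13.

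In the HoxD cluster (chromosome 2, plus strand), all 6 tested genes were lower in adult cells, beside 39.7% of all genes. Only Hoxd8 was above the floor in every adult library. The others passed the filter through their perinatal counts alone and could only come out lower, so this count is no test of the cluster. The posterior genes Hoxd10 to Hoxd13, which pattern forearm, lower leg and digits, had no read in any adult library. Hoxd13 (chromosome 2, 74668310 to 74671599), the terminal gene that is needed for digits, had 90, 110 and 172 counts in perinatal libraries 1, 2 and 3. Every perinatal library was thus far above the floor of 3 counts, and the adult level was at least 51.2-fold lower (edgeR adjusted p = 1.17e-04). Hoxd10 had 138, 81 and 68 perinatal counts and was at least 39.2-fold lower in adult cells (edgeR adjusted p = 1.55e-04). Hoxd11, which shapes the forearm together with Hoxa11, had 63, 57 and 50 perinatal counts and was at least 23.1-fold lower (edgeR adjusted p = 6.40e-05). These bounds are taken against the mean of the adult floors of 3 counts per library. The digit gene Hoxd12 did not pass the filter and had 2, 21 and 24 perinatal counts. Its perinatal libraries were unequal, with library 1 under the floor.

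Of the central and anterior HoxD genes, Hoxd8, Hoxd9 and Hoxd3 kept a few adult reads. Hoxd8 had 18, 16 and 15 counts in adult libraries 1 to 3 and 265, 135 and 88 in perinatal libraries. Perinatal library 1 was the highest by far, and the groups did not overlap. Scaled with TMM factors, as all group means here are, adult cells held 0.944 ± 0.102 CPM and perinatal cells 11.6 ± 6.95 CPM (SD, n = 3 per group). The log2 fold change was -3.61 (SE 0.47, edgeR adjusted p = 2.36e-04). Hoxd9 had 6, 10 and 3 adult against 156, 80 and 70 perinatal counts (log2 fold change -4.32, SE 0.50), again with perinatal library 1 at the top. Hoxd3 had 2, 2 and 1 adult against 22, 20 and 19 perinatal counts (log2 fold change -3.82, SE 0.42), and 62.4% of its exon bases also belong to Hoxd4 or Gm28230 on the same strand, so its reads could come from those genes. Hoxd1, untested, had 0 adult counts and 1, 3 and 3 perinatal counts, which is at or under the floor in every library. With the 3 silent genes set at their bounds, the HoxD median log2 fold change was -4.42, and with fitted values it was -6.66.

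Genomic sequence before the start sites is shown for Hoxd10 and Hoxd13, silent in adult cells, for Hoxd8, the Hox gene called between the Sca1 groups, and for Hoxb4, which was higher in adult cells. Each run is the 250 bases upstream of a RefSeq start on the plus strand (build GRCm38.p6), with CG pairs in capitals, the pairs at which DNA can be methylated.
Hoxd13, chr2:74667975-74668224: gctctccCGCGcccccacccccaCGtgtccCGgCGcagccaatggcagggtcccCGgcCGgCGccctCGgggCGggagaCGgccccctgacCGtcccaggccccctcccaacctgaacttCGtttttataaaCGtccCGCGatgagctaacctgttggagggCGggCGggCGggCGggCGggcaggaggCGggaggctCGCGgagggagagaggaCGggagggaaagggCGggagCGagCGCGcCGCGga
Hoxd10, chr2:74691641-74691890: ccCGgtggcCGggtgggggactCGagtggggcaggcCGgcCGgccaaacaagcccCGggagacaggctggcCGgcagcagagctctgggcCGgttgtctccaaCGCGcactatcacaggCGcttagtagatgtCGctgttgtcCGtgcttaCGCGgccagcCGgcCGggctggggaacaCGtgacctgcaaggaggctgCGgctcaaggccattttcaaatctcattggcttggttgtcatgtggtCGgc
Hoxd8, chr2:74704365-74704614: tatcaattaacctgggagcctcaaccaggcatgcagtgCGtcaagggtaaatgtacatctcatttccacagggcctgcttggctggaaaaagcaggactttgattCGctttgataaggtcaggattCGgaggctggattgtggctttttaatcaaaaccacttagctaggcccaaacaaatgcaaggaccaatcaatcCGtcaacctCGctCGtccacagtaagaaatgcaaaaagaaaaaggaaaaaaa
Hoxb4, chr11:96318017-96318266: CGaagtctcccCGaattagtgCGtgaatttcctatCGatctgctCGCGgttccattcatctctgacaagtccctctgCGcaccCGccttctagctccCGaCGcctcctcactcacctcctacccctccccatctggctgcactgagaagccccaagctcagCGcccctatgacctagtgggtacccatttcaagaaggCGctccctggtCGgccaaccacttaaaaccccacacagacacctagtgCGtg
These runs hold 31, 20, 6 and 14 CG pairs. The median was 13 over the 22 windows found for 20 of the 36 members, and 6 over 32817 windows of all genes. The Hoxd8 run was thus at the general median, with 50.3% of all windows at or above it, while 5.20% of windows held at least as many CG pairs as that of Hoxd13. On both strands, the letters TGATNNAT, the joint site of Pbx with an anterior Hox protein, were found in 3 of the 22 Hox windows (13.6%) and in 7.69% of all windows, and in none of the 4 shown. TTTATGG, a posterior Hox site, was in 0 Hox windows and 2.43% of all windows. TATAAA was in 3 Hox windows (13.6%) and 12.4% of all windows, and the Hoxd13 run has it on each strand at overlapping letters. A match is a description of the letters and says nothing of binding.

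The posterior end of HoxC had the opposite pattern. Hoxc13 (chromosome 15, 102921103 to 102928814, plus strand), known for its role in hair and nails, had 66, 51 and 66 counts in adult libraries 1 to 3 and 0 in every perinatal library, at least 16.8-fold higher (edgeR adjusted p = 1.69e-04). Hoxc12, its neighbour, had 26, 26 and 27 adult counts and none in the perinatal libraries, at least 7.19-fold higher (edgeR adjusted p = 3.32e-04). The adult libraries were alike for both genes. Both passed the filter through their adult counts alone and could only come out higher, so their calls are no test of direction. The next genes of the cluster were lower in adult cells: Hoxc11 at 1.87 ± 0.110 against 5.89 ± 1.63 CPM (log2 fold change -1.65) and Hoxc10, a hindlimb and lumbar gene, at 9.38 ± 1.43 against 20.9 ± 5.20 CPM (-1.16; SD, n = 3 per group). Hoxc4 was also lower (-1.60, SE 0.32). Hoxc8 was higher by 0.94 on the log2 scale (SE 0.34, edgeR adjusted p = 0.0354), and it lost the call in 10 of 12 other settings. The thoracic genes Hoxc5, Hoxc6 and Hoxc9 were not called, at log2 fold changes of -0.69, 0.54 and -0.23.

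In the HoxB cluster, the anterior genes Hoxb3 and Hoxb4 were higher in adult cells. Hoxb4 (chromosome 11, 96318267 to 96321638, plus strand), known for promoting growth of blood stem cells, had 136, 170 and 145 adult counts and 13, 16 and 9 perinatal counts. All adult libraries exceeded the perinatal ones several times over. Group means were 8.72 ± 1.39 and 0.886 ± 0.168 CPM (SD, n = 3 per group), with a fold change of 3.28 on the log2 scale (SE 0.27, edgeR adjusted p = 2.06e-05). Hoxb3 had 47, 37 and 40 adult against 5, 6 and 2 perinatal counts (log2 fold change 2.94, SE 0.40), with the caveat that 52.9% of its exon bases overlap Hoxb3os on the other strand and the strand setting of the counting is not given. Hoxb2, the third tested gene of the anterior end, was lower in adult cells, with 27, 42 and 30 against 97, 188 and 113 counts (-2.28, SE 0.29). Of its exon bases, 27.3% also overlap Hoxb3os. With these limits, Hoxb2, Hoxb3 and Hoxb4 differed in direction. Hoxb3 passed the filter through its adult counts alone and could only come out higher. Hoxb7 (-0.15) and Hoxb9 (1.12) were not called. Hoxb9 had 70, 14 and 16 adult counts, where adult library 1 stood apart, and 6, 21 and 10 perinatal counts. Hoxb5, Hoxb6 and Hoxb8 did not pass the filter, with 2 to 6, 6 to 11 and 1 to 10 adult counts and 9 to 45, 6 to 26 and 0 to 1 perinatal counts.

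HoxA, the most abundant cluster in both groups, changed in both directions. Its posterior genes Hoxa9, Hoxa10, Hoxa11 and Hoxa13 were all lower in adult cells. Hoxa13, the digit and distal gut gene, had 3, 2 and 3 adult counts and 51, 44 and 39 perinatal counts (log2 fold change -4.30, SE 0.39, edgeR adjusted p = 3.33e-05). It was at or under the floor in adult cells, passed the filter through its perinatal counts alone and could only come out lower. Hoxa11 went from 15.9 ± 2.09 CPM in perinatal to 6.27 ± 0.857 CPM in adult cells (-1.34), Hoxa10 from 21.2 ± 3.94 to 9.83 ± 0.994 CPM (-1.11) and Hoxa9 from 15.6 ± 3.35 to 6.35 ± 0.926 CPM (-1.30; SD, n = 3 per group). Of the Hoxa11 exon bases, 35.0% overlap Hoxa11os on the other strand. Hoxa7 (-0.99) and Hoxa2 (-1.31) were lower as well. Hoxa2 lost its call without adult replicate 1 (edgeR adjusted p = 0.0504) or replicate 3 (0.0628) and with perinatal replicate 1 alone (0.180).

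Hoxa6, a thoracic gene of the same cluster, was higher in adult cells. It passed the filter through its adult counts alone and could only come out higher. Hoxa6 had 25, 29 and 18 adult counts and 0, 3 and 0 perinatal counts, a ratio of summed CPM of 23.5 with a counting interval of 7.72 to 116 (exact binomial, 95%). Hoxa3 and Hoxa5 were not called, at 0.76 and 0.10 on the log2 scale, and Hoxa4 was untested, with 9, 8 and 11 against 5, 20 and 3 counts.

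Per gene length, paralogues of the same number changed places between the groups. The authors' TPM (transcript levels per gene length, which allow genes to be compared) were used for levels within a library. In group 13, Hoxc13 held 94.7% to 95.5% of the summed TPM in adult libraries, while perinatal libraries divided it between Hoxd13 and Hoxa13. In group 12 the adult level was all Hoxc12, at 2.68 ± 0.541 TPM, and the perinatal level all Hoxd12, at 0.545 ± 0.434 TPM (SD, n = 3 each). Group 4 was led by Hoxb4 in adult libraries (64.4% to 74.0%) and by Hoxc4 in perinatal libraries (53.9% to 77.2%). In group 3, Hoxd3 held 47.1% to 65.6% in perinatal and 1.05% to 4.18% in adult libraries, where Hoxa3 and Hoxb3 made up the rest. Hoxd8 held 90.7% to 97.5% of group 8 in perinatal libraries and 31.4% to 32.9% in adult libraries, where Hoxc8 led. In groups 2, 5, 6, 7, 9, 10 and 11 the same gene had the highest mean TPM in adult and perinatal cells: Hoxb2, Hoxa5, Hoxc6, Hoxa7, Hoxa9, Hoxa10 and Hoxa11.

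**Figure D2:**
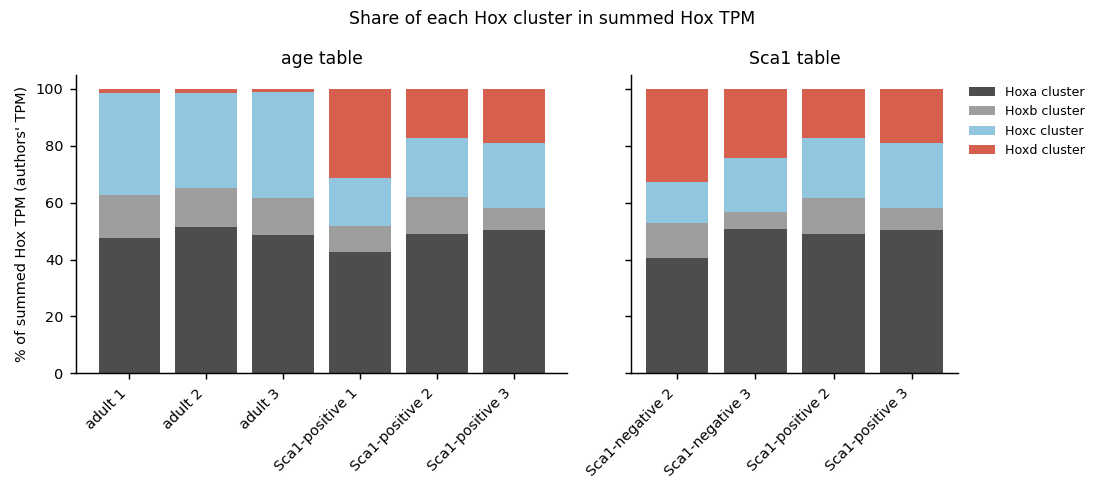
Share of the summed Hox TPM held by each cluster, as stacked bars for each library of the age table and the Sca1 table. HoxD holds 1.11% to 1.49% of adult bars and 17.3% to 32.7% of perinatal bars in both tables.

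Over the whole family, adult libraries summed to 89.5 ± 6.47 CPM and perinatal libraries to 153 ± 5.39 CPM (SD, n = 3 per group), and the ranges of 84.5 to 96.8 and 147 to 158 CPM did not overlap. HoxD summed to 1.42 to 1.65 CPM in adult libraries and to 29.3 to 49.7 CPM in perinatal ones, while HoxA held 47.5% to 51.3% of adult and 42.8% to 50.2% of perinatal Hox TPM. HoxC held 33.4% to 37.4% of adult and 16.9% to 22.8% of perinatal Hox TPM. In bulk RNA, fewer cells of a type and less RNA per cell cannot be told apart. Posterior groups 9 to 13 took 55.1% to 56.4% of Hox TPM in adult and 58.7% to 71.0% in perinatal libraries.

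Cell type markers also differed between adult and perinatal libraries. The 15 listed macrophage markers were called higher in adult cells, 15 of 15, and summed to 26528 to 29928 CPM in adult against 42.6 to 54.6 CPM in perinatal libraries, where Mpeg1 and Fcgr1 were at 0 in library 1. All 11 tested cartilage markers were lower in adult cells, with sums of 121 to 171 against 927 to 8653 CPM, and Col9a1, Col9a2 and Cnmd were at 0 in all adult libraries. Of the bone markers, 6 of 8 tested were called lower, with sums of 3250 to 3896 against 28638 to 50464 CPM. Fibroblast progenitor markers summed to 65.2 to 79.1 CPM in adult and 4902 to 10947 CPM in perinatal libraries, with 8 of 9 called lower. Pdgfra, the gene of the receptor both groups were sorted on, was at 13.1 ± 1.07 against 290 ± 29.7 CPM (SD, n = 3 per group). Marrow stroma markers summed to 565, 827 and 742 CPM in adult libraries, against 307, 607 and 715 CPM in perinatal ones. These sums overlapped, and of 8 tested genes 1 was called higher, 3 lower and 4 neither way. The adult libraries thus held high macrophage markers and low Pdgfra and fibroblast progenitor markers, which goes against their stromal label. Summed marrow stroma markers did not go against it. The part of these cell types in the Hox differences was not tested.

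Hox proteins bind DNA with the TALE homeodomain cofactors of the Pbx and Meis families. Of 9 cofactor genes, 7 were lower in adult cells, 1 was higher and 1 was not called, with a median log2 fold change of -1.35. This and the next list counts stand beside 77.1% of all genes called, 37.4% higher and 39.7% lower. Meis1, a cofactor that also acts in the proximal limb, had 70, 83 and 62 adult counts against 152, 335 and 352 perinatal ones (-2.26, SE 0.33). Meis2 was lower by a smaller amount (-0.79, edgeR adjusted p = 0.0397). Pbx2 was the exception, at 48.5 ± 1.15 against 10.8 ± 1.23 CPM (SD, n = 3 per group; 2.16, SE 0.14).

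Other genes of body position were mostly lower in adult cells too. In the list of limb and girdle genes, 19 of 22 tested were lower in adult cells, 1 was higher and 2 were not called (median log2 fold change -3.40, against -0.06 for all genes). Tbx4, the hindlimb T-box gene, had 2, 2 and 1 adult against 291, 522 and 457 perinatal counts. Its forelimb counterpart Tbx5 had 4, 1 and 0 against 173, 185 and 166, so both fore- and hindlimb genes were read in the same perinatal libraries and were near 0 in adult ones. Pitx1, which specifies the hindlimb upstream of Tbx4, kept 8.41 ± 1.77 CPM in adult cells, against 73.8 ± 8.26 CPM (-3.13, SE 0.20; SD, n = 3 per group). Irx3 was the member that was higher (2.88). Of the axial and cranial list, 11 of 14 tested genes were lower and none was higher, with 3 not called, among them the somite genes Meox1 (-9.27), Meox2 (-8.20) and Pax1 (-7.78). The list's median was -4.17 with fitted values and -3.69 with genes at 0 in a group set at their bound.

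Retinoic acid genes were mostly lower in adult cells, 10 of 15 tested, with 3 higher and a median log2 fold change of -3.47. The binding proteins Crabp1 (-9.45) and Crabp2 (-3.98) and the synthetic enzyme Aldh1a3 (-5.89) were among the lower ones. The receptor genes Rxra (1.95) and Rxrb (1.27) were higher. Of 29 Polycomb genes, 14 were called higher in adult cells, 9 lower and 6 neither way (median 0.41): Ezh1 (1.79), Suz12 (1.92) and Cbx7 (3.49) were higher and Rbbp7 (-2.23) was lower. Of 14 trithorax and demethylase genes, 8 were called higher, 3 lower and 3 neither way (median 0.79), with Kdm6b, a demethylase of the Polycomb mark, at 18.7 ± 6.68 against 392 ± 44.0 CPM (-4.39; SD, n = 3 per group). In both of these lists the share of genes called lay near the 77.1% of all genes. Evx2, the gene next to Hoxd13, had 0, 1 and 0 adult counts and 5, 8 and 12 perinatal counts.

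**Figure D3:**
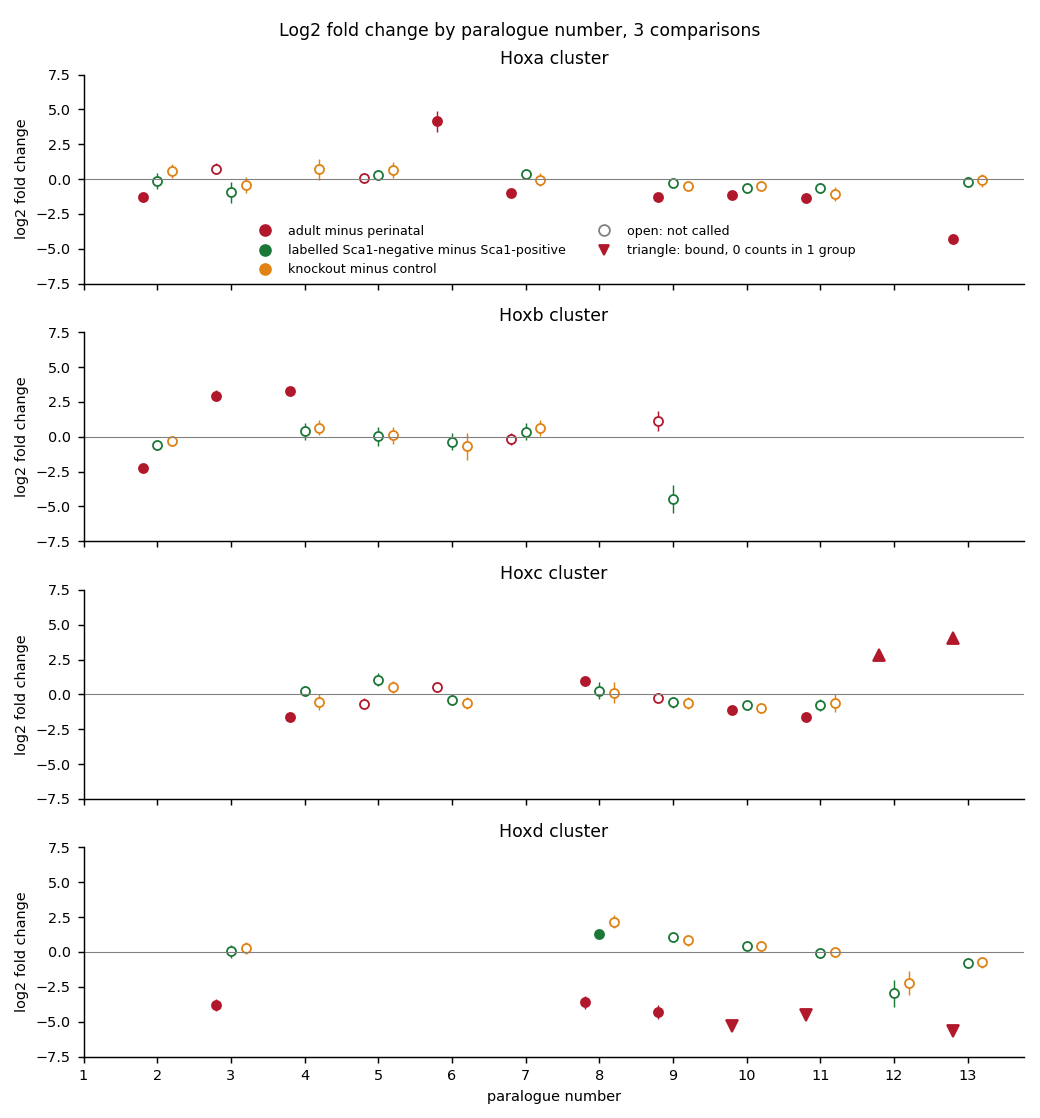
Log2 fold change of tested Hox genes by paralogue number and cluster in 3 comparisons, with the standard error as a vertical line. Filled points passed an adjusted p under 0.05, and triangles are bounds for genes at 0 in a whole group. HoxD points of the age comparison (red) lie between -3.61 and -5.68, and those of the other comparisons, which share perinatal libraries 2 and 3, lie nearer to 0.

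Between the perinatal libraries labelled Sca1-negative and Sca1-positive, 1 Hox gene was called. Hoxd8, a central gene of its cluster, was higher in the libraries labelled Sca1-negative, with 264 and 210 counts against 135 and 88. Each exceeded both libraries of the other group. Means were 16.5 ± 1.94 and 6.85 ± 1.07 CPM (SD, n = 2 per group), 1.26 apart on the log2 scale (SE 0.24, edgeR adjusted p = 0.0406). Of all 13529 genes 4.41% were called, 1.63% higher and 2.79% lower, and of the 28 tested Hox genes 1 was higher and 0 were lower (3.57% called, and 4 genes at an unadjusted p under 0.05). DESeq2 also called Hoxd8 alone. Leaving out Sca1-positive replicate 2 (log2 fold change 1.43, edgeR adjusted p = 0.0870) or replicate 3 (1.11, 0.298) ended the call of Hoxd8. The groups of 2 libraries did not overlap for 17 of the 28 genes, against 50.3% of all genes.

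The next genes of the cluster lay nearer to 0 in step with their distance from Hoxd8, as far as Hoxd11. Hoxd9, not called, had 138 and 148 counts against 80 and 70 (log2 fold change 1.09, SE 0.24, edgeR adjusted p = 0.0625). Further along, Hoxd10 was at 0.44, Hoxd11 at -0.09 and Hoxd13 at -0.76 on the log2 scale, none called. Hoxd12 had 0 and 5 counts against 21 and 24 (edgeR adjusted p = 0.160). On the anterior side, Hoxd3 was at 0.04. HoxD summed to 42.0 and 42.3 CPM where the label was Sca1-negative and to 29.1 and 34.0 CPM in the others.

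Posterior HoxA and HoxC genes lay lower in the libraries labelled Sca1-negative, without a call. Of the 13 tested genes of groups 9 to 13, 11 had a log2 fold change below 0, with a median of -0.63 (0.01 for all genes). Hoxc10 had 131 and 232 counts against 350 and 330 (log2 fold change -0.74, edgeR adjusted p = 0.284), and Hoxa11 had 96 and 182 against 282 and 212 (-0.65, 0.386). In both genes replicate 2 was the lowest library and replicate 3 lay near the other group. Without Sca1-negative replicate 3, 8 Hox genes were called lower, Hoxa3, Hoxa9, Hoxa10, Hoxa11, Hoxb9, Hoxc10, Hoxc11 and Hoxd12, and 4835 genes in all were called. Without Sca1-negative replicate 2, 3 Hox genes were called higher (Hoxc5, Hoxd8 and Hoxd9) and Hoxb2 lower, among 2257 calls. Hoxb9, a thoracic gene, had 0 and 1 counts against 21 and 10, a ratio of summed CPM of 28.4 with a counting interval of 4.73 to 1157 (edgeR adjusted p = 0.0692).

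Position genes outside the clusters that were called were all lower in the libraries labelled Sca1-negative. They were 3 of 23 limb and girdle genes, with Tbx2 (log2 fold change -1.76) and Isl1 (-3.53) among them, and 3 of 18 axial and cranial genes, with Dlx5 (-2.41) and Foxc2 (-3.16) among them. In the retinoic acid list, 3 of 16 were lower: the degrading enzymes Cyp26a1 (-4.85) and Cyp26b1 (-1.40) and the retinol transporter Stra6 (-3.60). The list medians were -0.58, -0.49 and -0.43, against 0.01 for all genes. No cofactor, Polycomb or trithorax gene was called by edgeR, of 9, 29 and 14 tested, where 1, 3 and 0 had an unadjusted p under 0.05 and DESeq2 called 0. Pitx1 had 397 and 711 counts against 1296 and 972 (-0.85, edgeR adjusted p = 0.204), and Tbx5 had 227 and 230 against 185 and 166 (0.54, 0.234). The 12 cartilage markers, all called lower, summed to 766 and 892 CPM against 7498 and 8655 CPM, and none was at 0. Fibroblast progenitor markers, 8 of 11 called higher, summed to 12516 and 11555 against 4930 and 5139 CPM. Bone markers, 8 of 10 called lower, summed to 24057 and 28241 against 49449 and 50479 CPM. Marrow stroma markers (3 of 8 called lower) lay at 274 and 391 against 607 and 715 CPM, and erythroid markers (1 of 9 called lower) at 322 and 958 against 1317 and 1677 CPM. All 5 of these marker sums kept the label groups apart. So did blood progenitor markers, at 833 and 1217 against 433 and 533 CPM, a list that shares Cd34 with the fibroblast progenitor list. Its 8 tested genes had a median log2 fold change of 0.28. Of them, 2 had an unadjusted edgeR p under 0.05, and DESeq2 called 1 higher. Muscle marker sums also kept the label groups apart, at 458 and 443 against 292 and 318 CPM, but the tested genes did not follow the sum. The 4 tested muscle markers had a median log2 fold change of -0.73. All 4 had an unadjusted edgeR p under 0.05, and DESeq2 called 1 lower and 0 higher. In the blood progenitor and muscle lists edgeR called no gene. Macrophage and endothelium sums overlapped. The part of these cell types in the Hox values was not tested.

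**Figure D4:**
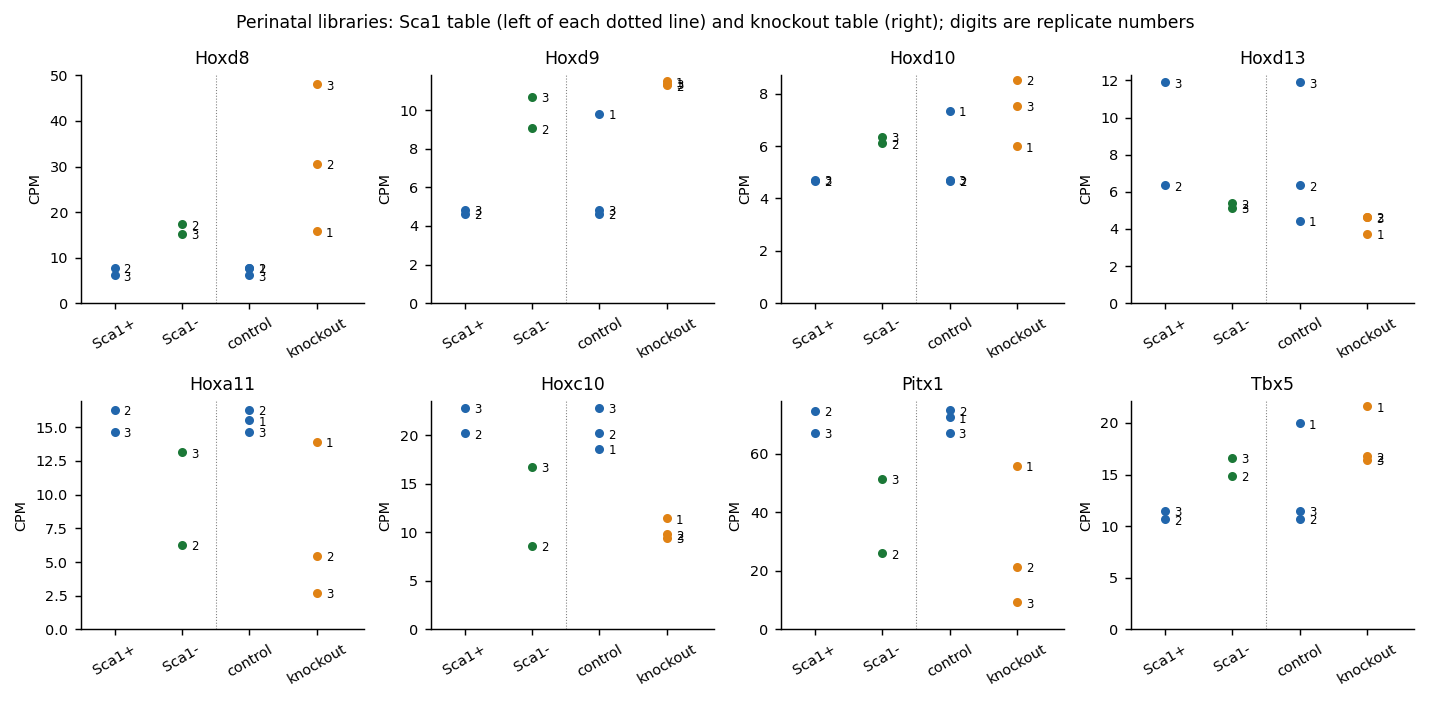
CPM of 6 Hox genes and 2 limb genes in single libraries of the Sca1 table (left of each dotted line, labels Sca1+ and Sca1-) and the knockout table (right), with the replicate number beside each point. Sca1+ libraries and controls 2 and 3 are the same libraries. Hoxd8 is higher in every knockout library than in every control, at 15.8 to 48.1 against 6.09 to 7.80 CPM.

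Loss of Igf1r was not accompanied by a called change in any Hox gene with edgeR. None of 28 tested genes passed, 3 had an unadjusted p under 0.05, and of all 13590 genes 0.0368% were called, 5 genes, all lower. With DESeq2, Hoxd8 (adjusted p = 3.85e-04) and Hoxc10 (0.00665) were called, and the authors' deposited table lists Hoxd8 and Hoxc10 as changed, at adjusted p of 2.80e-04 and 0.0167, beside 6.40% of all its rows. Knockout and control libraries did not overlap for 7 Hox genes, against 29% of all genes: Hoxd8 and Hoxd9 lay higher, and Hoxa9, Hoxa10, Hoxa11, Hoxc10 and Hoxd12 lower.

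Hoxd8 had 157, 135 and 88 counts in controls 1, 2 and 3 and 351, 581 and 1144 in knockouts 1, 2 and 3. The knockouts were unequal among themselves, and the lowest of them lay above the highest control. Controls held 7.15 ± 1.14 CPM and knockouts 32.6 ± 18.4 CPM (SD, n = 3 per group), a log2 difference of 2.18 (SE 0.44, edgeR adjusted p = 0.176). Hoxc10 had 377, 350 and 330 control counts and 254, 186 and 224 knockout counts. Its knockout libraries were close to each other and below every control, at 10.3 ± 0.528 against 20.3 ± 1.66 CPM (-0.98, SE 0.22, edgeR adjusted p = 0.176).

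Controls 2 and 3, low in Ly6a, were also high in cartilage markers: the 12 genes summed to 7501 and 8660 CPM there, to 1042 CPM in control 1 and to 551 to 911 CPM in the knockouts. None of the 12 was called by edgeR, all had an unadjusted p under 0.05, and DESeq2 called 12 lower. Erythroid markers set all 3 controls apart from the knockouts, at 1244, 1318 and 1678 CPM in controls 1 to 3 against 160 to 250 CPM. The alpha and beta globin genes of that list (4 of its 9 members) were among the 5 genes that edgeR called lower in this table. Bone markers summed to 34622, 49466 and 50507 CPM in controls 1 to 3 and to 26331 to 29859 CPM in the knockouts, and fibroblast progenitor markers to 8219, 4932 and 5142 against 10785 to 12904 CPM. Of these, edgeR called 0 of 9 and 0 of 11, and DESeq2 called 6 bone markers lower and 2 fibroblast progenitor markers higher. Control 1 thus lay near the knockouts in cartilage markers, between the knockouts and the other controls in bone and fibroblast progenitor markers, and with the other controls in erythroid markers. The part of these cell types in the Hox values was not tested.

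Against control 1 alone, Hoxd8 was at 1.99 and Hoxc10 at -0.93 on the log2 scale (edgeR adjusted p = 0.586 for both, with the lone control assumed to vary like the knockouts). Hoxd9 behaved otherwise: control 1 had 199 counts, controls 2 and 3 had 80 and 70, and the knockouts had 255, 214 and 270. Its values in control 1 lay close to the knockouts, at 9.81 CPM against 11.3 to 11.5 CPM.

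Knockout library 1 lay nearer to the controls than the other knockouts did in 3 limb genes, Hoxa11, Pitx1 and Tbx4. Hoxa11 had 315, 282 and 212 control counts and 309, 104 and 65 knockout counts (log2 fold change -1.08, SE 0.49, edgeR adjusted p = 0.242). Pitx1 was at 72.4, 74.9 and 67.3 CPM in controls and at 56.0, 21.5 and 9.29 CPM in knockouts, and Tbx4 at 26.1, 30.1 and 31.6 CPM against 18.6, 10.5 and 4.33 CPM. Tbx5 had no such pattern, at 20.0, 10.7 and 11.5 CPM against 21.6, 16.8 and 16.4 CPM. Without knockout 1, Hoxd8 was called higher (2.53, edgeR adjusted p = 0.0228) and Hoxa11 (-1.86, 0.0232), Hoxc10 (-1.01, 0.0279) and Hoxd12 (-3.78, 0.0366) lower, together with 3003 genes in all.

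Over the family, controls summed to 157 ± 5.08 CPM and knockouts to 150 ± 13.8 CPM (SD, n = 3 per group), with overlap. HoxD summed to 29.1 to 35.4 CPM in controls and 42.9 to 76.2 CPM in knockouts, and HoxC to 33.2 to 40.4 and 15.2 to 28.9 CPM, both without overlap. Without Hoxd8 the sums for the rest of HoxD overlapped, at 21.3 to 27.9 and 27.0 to 30.1 CPM. Without Hoxc10 those for the rest of HoxC overlapped, at 14.6 to 17.5 and 5.80 to 17.4 CPM. In both, the overlap came from knockout 1, while knockouts 2 and 3 stayed apart from every control. The posterior genes Hoxd10 to Hoxd13 overlapped too, at 15.5 to 21.7 and 13.8 to 17.0 CPM. HoxA sums overlapped, at 66.9 to 80.8 and 36.2 to 74.5 CPM. Paralogue groups 9 to 13 lay at 109 to 112 against 64.9 to 91.1 CPM. Of the 12 tested genes of groups 9 to 13, 10 had a log2 fold change below 0. Hoxd9 and Hoxd10 were the ones above. Hoxd10 and Hoxd11 differed little, at 0.42 and -0.01, and Hoxd13, with 90, 110 and 172 against 83, 88 and 110 counts, was at -0.75 (edgeR adjusted p = 0.279). Hoxd12 had 10, 21 and 24 control counts and 12, 1 and 2 knockout counts (edgeR adjusted p = 0.205).

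Among anterior and central members, Hoxa7 and Hoxa5 varied widely between knockout libraries. Hoxa7 had 350, 260 and 109 counts in knockouts 1 to 3 and 328, 156 and 138 in controls 1 to 3. Hoxa5 had 157, 49 and 35 against 56, 37 and 29. The median log2 fold change was 0.29 over the 7 tested genes of groups 1 to 4 and 0.13 over the 9 of groups 5 to 8, against -0.03 for all genes. No gene of the cofactor, limb and girdle, axial and cranial, retinoic acid, Polycomb or trithorax lists was called by edgeR. In list order, 1, 11, 3, 3, 5 and 1 of these genes had an unadjusted p under 0.05. DESeq2 called 1 limb and girdle gene higher and 4 lower, 4 axial and cranial genes lower, 1 retinoic acid gene higher and 2 lower, and 0 of the other lists. Meis1 was at 11.1 ± 0.972 CPM in knockouts and 18.1 ± 5.74 CPM in controls (SD, n = 3 per group; edgeR adjusted p = 0.219).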

How the data were processed

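RNA counts per gene were used as the authors deposited them in 3 tables, per the file headers. The authors' TPM values of the age and Sca1 tables served only to compare levels between genes. Columns headed TPM in the deposited knockout table held values on a log scale, taken as log2 though the transform is not stated, and were not used. The authors' log2 fold changes and adjusted p-values, per the file headers, were copied where named. Trimmomatic 0.32, build mm10 and DESeq2 are named in the submitters' processing notes. No source used here gives the aligner, counter, annotation or strand setting.

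Each table was fitted by itself with edgeR 4.0.16 in R 4.3.3 (filterByExpr, TMM factors, robust glmQLFit and glmQLFTest, group as the only term), with Benjamini-Hochberg adjustment over all genes tested. Library totals ran from 13412316 to 23782217 counts. CPM of single libraries and sums are unscaled, and group means of genes are TMM-scaled. Alternatives were DESeq2 1.42.0, other scaling factors, no filter, a replicate block and left-out libraries. In simulated data with 200 genes changed 4-fold, 100%, 100% and 89.5% of them were recovered in the age, Sca1 and knockout designs (13572, 13353 and 13453 genes). Of the calls, 6.54%, 4.76% and 2.72% were false. The changed genes were drawn from well-counted genes only, and all genes were given a shared dispersion in uniform groups. The recovery therefore does not carry over to Hox genes of low count or to groups with unequal libraries, such as the controls of the knockout comparison. Gene positions are from GENCODE M21, promoter windows from RefSeq (GRCm38.p6).

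The members and lists were chosen with earlier results of these data known. Any Hox gene could be named, and some genes are not reported here by name or drawn. From each other list the text names up to 4 called genes with the smallest adjusted p, or the 2 most abundant where none was called, beside Tbx4, Tbx5, Pitx1, Meis1, Meis2, Igf1r, Ly6a and Pdgfra. Irx3, Rxra, Rxrb and Evx2 were named after their values were seen.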

Additional observations from a re-analysis of the deposited data

How the results depend on the processing

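In the age comparison, 26 of 30 Hox genes were called under at least 1 setting, and the counts stayed at 6 or 7 higher and 16 to 19 lower over all settings. In the Sca1 comparison the counts moved: leaving out 1 replicate gave 0 to 3 higher and 0 to 8 lower, and the replicate block gave 2 higher and 2 lower. The log2 fold change of Hoxa9, -0.29, ran from -0.69 to 0.028 with 1 replicate left out, and turned positive without Sca1-negative replicate 2. In the knockout comparison, DESeq2 gave 1 higher and 1 lower, leaving out 1 replicate gave 0 to 1 higher and 0 to 3 lower, and Tbx5 turned from 0.38 to -0.20 against control 1 alone. The causes were not tested. Of the Hox genes never called, 3 of 4, 9 of 16 and 8 of 24 changed sign under some setting in the age, Sca1 and knockout comparisons.

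Calls over all genes moved too. In the Sca1 comparison 597 genes were called, 1007 with DESeq2, 1369 with the replicate block and 484 to 4835 with 1 replicate left out. In the knockout comparison 5 were called, 999 with DESeq2, 0 with the replicate block, 0 against control 1 alone and 0 to 3003 with 1 replicate left out (3003 without knockout 1, 306 without control 1, 0 otherwise). Low counts kept Hoxa4, Hoxb5, Hoxb6, Hoxb8, Hoxd1 and Hoxd12 out of the main age test.

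Replicate numbers were not shown to pair the samples. Deviations of samples with the same number correlated at -0.019, -0.018 and 0.19 in the age table, 0.30 in the 2 pairs of the Sca1 table, and 0.19, 0.12 and 0.056 in the knockout table. With the replicate block, 6 Hox genes were higher and 16 lower in the age comparison and 0 were called in the knockout comparison.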

Other observations

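Genes within 500 kb of the clusters, a window chosen after Hox values were seen, were read in the same fits. All 6 tested HoxD members were lower in adult cells, with the limit set by the filter that is given above. Beside HoxD, Lnpk was not called (214, 287 and 123 adult against 175, 208 and 170 perinatal counts, log2 fold change -0.16). Mtx2 was lower (-1.03, edgeR adjusted p = 2.58e-04). Beside HoxA, Skap2 was higher in adult cells (3.71) while Hibadh (-1.11) and Tax1bp1 (-0.54) were lower. Around HoxC, 8 of 18 tested neighbours were higher and 7 lower, and around HoxB 7 of 12 were higher and 4 lower, beside 37.4% of all genes called higher and 39.7% lower. In the knockout comparison none of the 33 tested neighbours was called by edgeR, 5 had an unadjusted p under 0.05 and DESeq2 called 2, both higher.

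Perinatal replicate 1 of the age table had the highest HoxD sum of that group, 49.7 CPM against 29.3 and 34.2 CPM in replicates 2 and 3, and the lowest cartilage marker sum, 927 CPM. Control 1 of the knockout table holds different counts under the same sample label. It had a cartilage marker sum of 1042 CPM, a HoxD sum of 35.4 CPM and 7.74 CPM of Hoxd8. Perinatal replicate 1 of the age table had 17.9 CPM of Hoxd8. That replicate, labelled Sca1-positive, lay near the libraries labelled Sca1-negative, which had cartilage marker sums of 766 and 892 CPM and 17.3 and 15.2 CPM of Hoxd8. Its sum over the 9 fibroblast progenitor markers of the age comparison was 10947 CPM, against 4902 and 5118 CPM in replicates 2 and 3. The Sca1 comparison listed 11 such markers. They summed to 12516 and 11555 CPM in libraries labelled Sca1-negative and to 4930 and 5139 CPM in replicates 2 and 3. Sums of the 2 comparisons thus cover different gene sets.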
